A study of Mus musculus with 12 samples.

Results

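The bile acid synthesis enzymes and the farnesoid X receptor (FXR) axis were followed through 10 genes on 12 mouse expression arrays. The genes were Cyp7a1, Cyp8b1, Cyp27a1, Cyp7b1, Hsd3b7, Akr1d1, Baat and Slc27a5, which are 8 enzymes, and Nr0b2 and Nr1h4, which are 2 nuclear receptors. A gene entered when a transcript cluster, the group of probes that stands for one gene on the array, carried exactly 1 gene symbol and that symbol was one of the 10. All 10 genes were found, each with 1 cluster, among 19946 genes and 35556 clusters. All 10 had a mean log2 signal of at least 6 over the 12 arrays.

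Hepatocytes turn cholesterol into bile acids by a neutral route that Cyp7a1 opens and by an acidic route that Cyp27a1 and Cyp7b1 open. Cyp8b1 adds the hydroxyl group that makes cholic acid and so sets its share among the bile acids. FXR, encoded by Nr1h4, is the receptor that bile acids activate, and it raises SHP, encoded by Nr0b2, which in turn represses Cyp7a1 and Cyp8b1. The intestinal hormone Fgf15 acts on the liver through Fgfr4 and beta-Klotho to lower Cyp7a1 as well.

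The study compared KK-Ay mice, a model of type 2 diabetes (T2D), with KK mice. KK-Ay (KK.Cg-Ay/J) carries the yellow allele of agouti on the KK background, which itself is prone to glucose intolerance, so the KK controls are not a lean wild type. The arrays are named here by their titles, in 6 groups of 2: 1, 6K, 6Y, 16Y, 42WKK and 42Y. The design text places 6Y, 16Y and 42Y with T2D and 1, 6K and 42WKK with the controls. The methods give an age of 42 weeks, which fits the titles 42WKK and 42Y. No age is given for the titles 1, 6 and 16, and the strain of the 1 arrays, the sex of the mice and the hour of collection are not given in the sources used here. No treatment is recorded for any group, and the methods state lab chow ad libitum. Nothing states that the 2 arrays of a group came from separate mice, and the p-values below then cover no more than array-to-array variation, which may be technical.

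The records disagree on 2 points. The genotype field calls the 6K arrays T2D and the 42Y arrays control, against the design text. The agouti transcript, which the yellow allele turns on in every tissue, had a log2 signal of 6.78 to 7.06 on the 6 arrays with Y in the title and 5.20 to 5.51 on the other 6. The 6K arrays lay at 5.20 to 5.29 and the 42Y arrays at 6.96, so the transcript followed the titles and not the genotype field. The tissue field says blood, whereas the methods say liver. The median log2 signal of 8 hepatocyte markers was 12.95 to 13.22 on every array, and that of 5 T cell markers was 3.79 to 4.35. These are signals of different probes and are no test of the tissue, so liver is taken here from the methods. The array medians over all clusters lay between 4.74 and 4.88, and the 2 arrays of a group correlated across clusters with a Pearson coefficient of 0.983 (42Y) to 0.991 (42WKK).

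Signals are log2 values, so a difference of 1 is a doubling of the array signal. Groups were compared by limma, with p-values adjusted by Benjamini-Hochberg over all 35556 clusters and a call at an adjusted p under 0.05. A signal is compared only between arrays for the same gene, never between genes.

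Cyp8b1 fell in the 42Y liver, and it was the gene of the 10 with the clearest difference between groups. Its log2 signals were 8.03 and 8.42 on the 42Y arrays. They were 9.59 and 9.56 on the 42WKK arrays, 9.60 and 9.76 on the 16Y arrays, and 9.47 and 9.13 on the 6Y arrays. The 6K arrays gave 9.49 and 9.34, and the 1 arrays 10.11 and 9.65. Both 42Y arrays lay below all 10 other arrays, whose lowest was 9.13.

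The Cyp8b1 signal was 2.55-fold lower in 42Y than in 42WKK (means 8.22 ± 0.27 and 9.58 ± 0.024, SD, n = 2 each). The log2 difference was -1.35 (SE 0.19, 95% interval -1.79 to -0.91, limma adjusted p = 0.0186). Cyp8b1 was the 1 of 10 genes called in this comparison, in which 1.85% of all clusters were called. Against 16Y the log2 difference was -1.46 (SE 0.19, adjusted p = 0.0322), again the 1 of 10 genes called, where 0.399% of all clusters were. Against the 1 arrays it was -1.66 (SE 0.19, adjusted p = 0.0100), the 1 of 10 genes called with 1.25% of all clusters. These 3 comparisons share the 42Y arrays and are not independent of each other. In bulk samples fewer cells of a type and less RNA per cell cannot be told apart from the signal of a single gene. The 8 hepatocyte markers, all measured, had log2 differences of -0.20 to 0.05 between 42Y and 42WKK, with a median of -0.12, and none was called.

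The call against 42WKK rests on few arrays. The log2 difference stayed between -1.54 and -1.16 with any 1 array left out, but the adjusted p rose to 0.128 without array 42WKKA, to 0.124 without 42WKKB and to 0.0636 without 42Y-1. It was 0.177 when the 4 arrays were fitted alone.

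At title number 6 the Y and K arrays overlapped for Cyp8b1, with a log2 difference of -0.12 (SE 0.19, adjusted p = 0.977). None of the 10 genes was called there by limma, and 0.00281% of all clusters were. At an unadjusted p under 0.05 the count was 1 of 10, Cyp7b1, beside 5.28% of all clusters. The difference at 42 minus that at 6 was -1.23 for Cyp8b1 on the log2 scale (SE 0.27, 95% interval -1.85 to -0.62), with an adjusted p of 0.129, which misses the threshold. In that test of the difference between the differences, 0 of 10 genes and 0.143% of all clusters were called, with Cyp7a1 and Cyp8b1 the 2 at an unadjusted p under 0.05, a level that 13.2% of all clusters reached. The Cyp8b1 effect at 42 was thus not shown to differ from that at 6. The log2 difference of all Y arrays from the other arrays was -0.56 (SE 0.11, adjusted p = 0.108), and the 2 sets overlapped. In this comparison 0 of 10 genes and 0.208% of all clusters were called, with 3 of 10 genes and 12.3% of all clusters at an unadjusted p under 0.05.

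**Figure D1:**
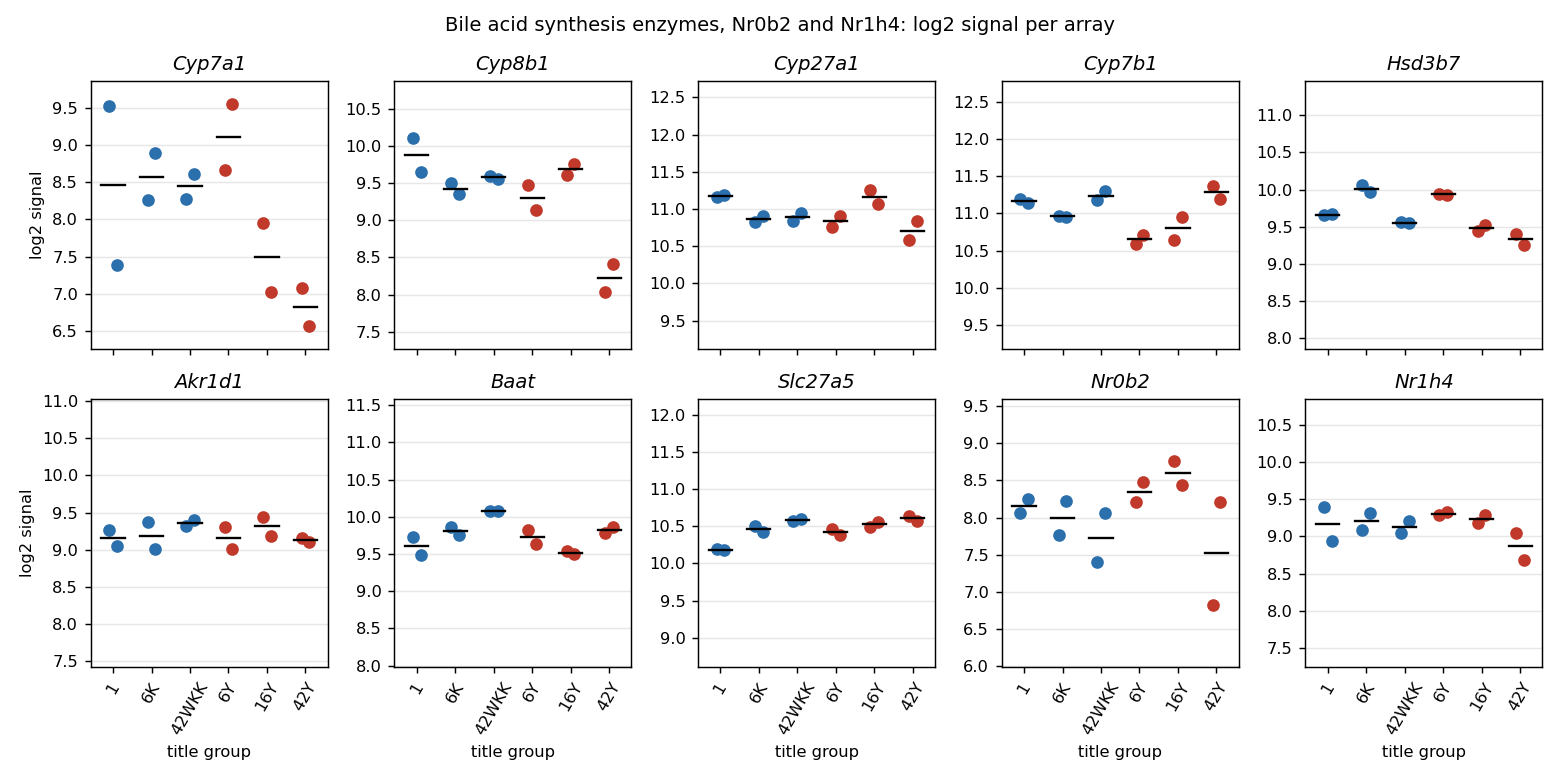
Log2 signal of each of the 10 genes on each array (points) by title group, with the mean of the 2 arrays of a group (bar). Red marks titles with Y and blue the others, and every panel spans the same height on the log2 scale. The 42Y arrays lie apart from all others for Cyp8b1, at 8.03 and 8.42 against 9.13 to 10.11.

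The sequence upstream of Cyp8b1 is shown because this gene carries the one called difference between KK-Ay and KK mice. It is the 250 bases before the RefSeq gene start, on the minus strand of chr9:121916306-121916555 (GRCm38.p6), written in the direction of the gene. The capitals mark CAAAGTCCA, a form of the site of HNF4-alpha, which is the hepatocyte receptor that drives Cyp8b1.
Cyp8b1: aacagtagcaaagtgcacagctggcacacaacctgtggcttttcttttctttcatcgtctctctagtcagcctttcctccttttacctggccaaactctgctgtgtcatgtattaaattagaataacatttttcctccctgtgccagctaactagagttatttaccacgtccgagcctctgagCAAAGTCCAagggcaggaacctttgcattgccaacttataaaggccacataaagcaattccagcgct
The match lay 67 to 59 bases before the start. Searched on both strands, these letters occurred in 0.384% of 32851 mouse promoters of the same length. The match is a description of the letters and no test of binding.

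Cyp7a1 is the rate-limiting enzyme of the neutral route. It had the widest spread of the 10 genes, a 7.89-fold range over the arrays. Its log2 signals were 7.08 and 6.57 in 42Y, 7.96 and 7.03 in 16Y, and 8.67 and 9.55 in 6Y. They were 8.28 and 8.61 in 42WKK, 8.26 and 8.89 in 6K, and 9.52 and 7.39 in the 1 group. Among the Y titles the 6Y arrays were highest, and the 16Y and 42Y arrays overlapped. The arrays without Y in the title overlapped with each other, and the 1 arrays alone had an SD of 1.51.

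The Cyp7a1 signal was 3.07-fold lower in 42Y than in 42WKK without passing the test, with a log2 difference of -1.62 (SE 0.64, 95% interval -3.08 to -0.16, adjusted p = 0.246). The log2 difference of 16Y from 6Y was -1.62 (SE 0.64, adjusted p = 0.229). The log2 difference between the differences at 42 and at 6 was -2.15 (SE 0.91, adjusted p = 0.363). The spread between arrays of a group was an SD of 0.76 on the log2 scale, beside 0.83 between the group means. It was 0.36 in 42Y and 0.24 in 42WKK. With the arrays of those groups fitted alone, the difference at 42 had an SE of 0.23 and a limma adjusted p of 0.18, again no call. The log2 difference of 42Y from the 1 group turned on a single array: it was -1.63 with both, and -0.56 without array 1-3.

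Hsd3b7 and Akr1d1 alter the sterol ring in both routes. The former makes a ketone with a double bond in the ring, and the latter then reduces that double bond. Hsd3b7 varied between the groups. Its log2 signals were 10.06 and 9.97 in 6K and 9.94 and 9.93 in 6Y, which were the highest. They were 9.65 and 9.68 in the 1 group, 9.56 and 9.55 in 42WKK and 9.45 and 9.52 in 16Y. The 42Y arrays gave 9.41 and 9.26, below all 10 other arrays. The 4 arrays with title number 6 lay above all others, whereas the 16Y, 42WKK and 42Y arrays lay close together.

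Over all 6 groups, Hsd3b7 (limma F test, adjusted p = 0.0253) and Cyp8b1 (adjusted p = 0.021) were the 2 of 10 genes called, and 5.43% of all clusters were. The same 2 genes had both 42Y arrays below the other 10, which held for 3.07% of all clusters. In single comparisons Hsd3b7 missed the threshold. The 16Y signal was 1.37-fold lower than the 6Y signal (log2 difference -0.45, SE 0.095, adjusted p = 0.056). The 42WKK signal was 1.38-fold lower than the 6K signal (log2 difference -0.46, SE 0.095, adjusted p = 0.064). At 42 the difference was -0.22 (SE 0.095, adjusted p = 0.28). Among 16Y against 6Y, 0 of 10 genes and 1.78% of all clusters were called, with 3 of 10 genes and 18.1% of all clusters at an unadjusted p under 0.05. Among 42WKK against 6K, 0 of 10 genes and 1.01% of all clusters were called, with 2 of 10 genes and 15.0% of all clusters at an unadjusted p under 0.05.

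Markers of stellate cells and of liver endothelial cells moved with Hsd3b7 in part. The summed log2 signal of the 4 stellate cell markers, all measured, was highest with title number 6, at 26.2 to 26.8 in 6K and 26.1 to 27.1 in 6Y. It was 25.6 to 26.2 in 42WKK, 24.3 to 25.6 in the 1 group, 24.1 to 24.8 in 16Y and 23.7 to 25.0 in 42Y. That of the 4 endothelial markers, all measured, was 28.5 to 29.2 in 6K and 29.3 to 30.9 in 6Y. It was 25.3 to 26.5 in the 1 group, 26.5 to 26.8 in 16Y, 27.9 to 28.0 in 42WKK and 27.3 to 28.6 in 42Y. The endothelial sum was thus lowest in the 1 group, where Hsd3b7 lay above 42WKK, 16Y and 42Y. The sum of the 6 Kupffer cell markers was 38.8 to 39.3 in 6K and 38.8 to 43.1 in 6Y. It was 38.4 to 39.2 in 16Y, 37.1 to 37.6 in 42WKK, 36.6 to 39.3 in 42Y and 34.4 to 36.7 in the 1 group. The part of these lists in the Hsd3b7 differences was not tested. The Hsd3b7 call over the 6 groups was lost without the 6K arrays and in 10 of the 12 fits that left out 1 array. The Cyp8b1 call over the 6 groups was lost in 5 of those 12 fits, namely without either 16Y array, either 42WKK array or array 42Y-1.

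Akr1d1 lay between 9.01 and 9.44 on all arrays, the narrowest range of the 10 genes. Its highest and lowest group means, 9.36 in 42WKK and 9.13 in 42Y, differed by 0.23 on the log2 scale, and the F test gave an adjusted p of 0.761. At 42 the interval of the difference ran from -0.60 to 0.15.

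**Figure D2:**
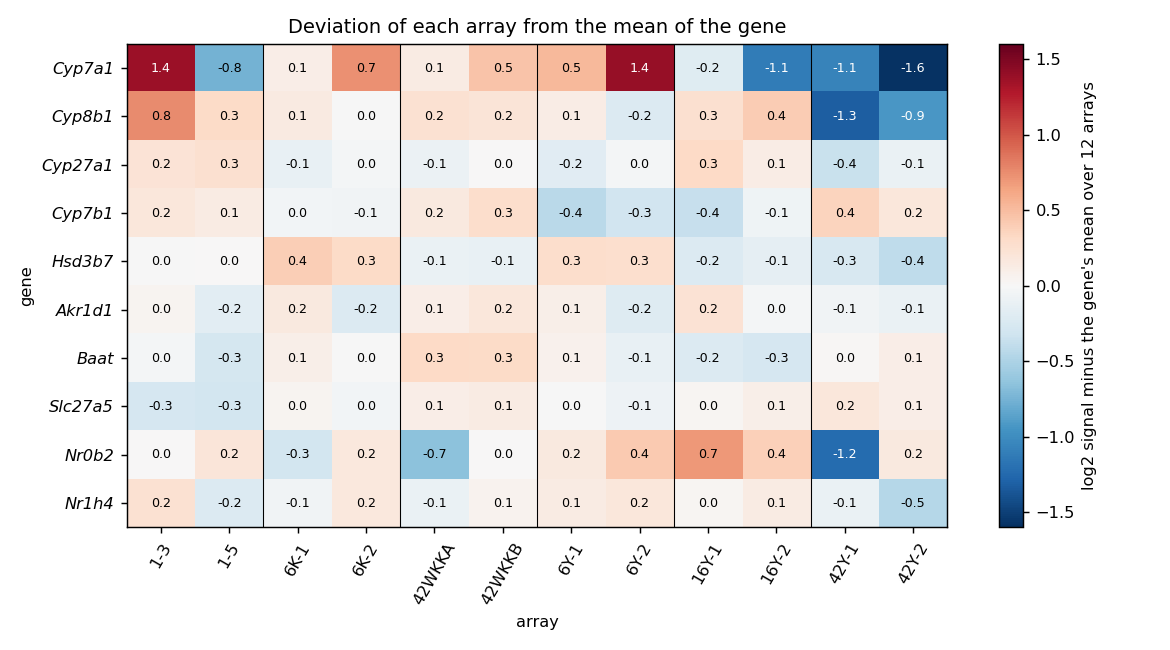
Log2 signal of each gene on each array minus the gene's mean over the 12 arrays, as colour and number; columns are arrays in their title groups and rows are genes. The lowest cells are those of Cyp7a1 and Cyp8b1 on the 42Y arrays, of Cyp7a1 on array 16Y-2 and of Nr0b2 on array 42Y-1, and the Hsd3b7 row is highest in 6K and 6Y.

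The acidic route begins with Cyp27a1, the mitochondrial sterol 27-hydroxylase, and goes on through Cyp7b1, the oxysterol 7-alpha-hydroxylase. Cyp27a1 gave log2 signals of 10.58 and 10.84 in 42Y, the lowest group mean, and of 11.26 and 11.06 in 16Y and 11.16 and 11.20 in the 1 group, the highest. The 6K, 6Y and 42WKK arrays lay between 10.76 and 10.94. The log2 difference between 42Y and 16Y was -0.45 (SE 0.12, adjusted p = 0.158) and that between 42Y and 42WKK -0.18 (SE 0.12, adjusted p = 0.503). Neither passed the test.

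Cyp7b1 did not share the low level of the 42Y arrays. It gave 11.37 and 11.20 in 42Y, 11.18 and 11.30 in 42WKK and 11.20 and 11.15 in the 1 group. The 6K arrays gave 10.97 and 10.96, the 16Y arrays 10.65 and 10.95, and the 6Y arrays 10.59 and 10.71. The 42Y mean was thus the highest of the 6 groups and the 6Y mean the lowest. The log2 difference between 42Y and 16Y was 0.48 (SE 0.13, adjusted p = 0.135), that between 6Y and 6K -0.31 (SE 0.13, adjusted p = 0.921) and that between 42Y and 42WKK 0.05 (SE 0.13, adjusted p = 0.894). The F test over the groups gave an adjusted p of 0.0576.

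Slc27a5, the bile acid CoA ligase, and Baat, which joins the activated bile acid to taurine or glycine, carry out conjugation. Slc27a5 was lowest in the 1 group, at 10.19 and 10.18, and between 10.39 and 10.64 on the other 10 arrays. The 42Y signal was 1.34-fold that of the 1 group (log2 difference 0.42, SE 0.089, adjusted p = 0.0637), and the 42Y and 42WKK arrays overlapped (log2 difference 0.02). Baat was highest in 42WKK, at 10.08 and 10.07, against 9.78 and 9.86 in 42Y and 9.55 and 9.50 in 16Y. The 1 arrays gave 9.73 and 9.48, the 6K arrays 9.86 and 9.75 and the 6Y arrays 9.83 and 9.64. The log2 difference of 42Y from 42WKK was -0.26 for Baat (SE 0.12, adjusted p = 0.304).

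Nr1h4, the bile acid receptor, had log2 signals of 9.04 and 8.69 in 42Y, the lowest group mean. The 42WKK arrays gave 9.05 and 9.21 and the other 8 arrays lay between 8.94 and 9.40. The log2 difference at 42 was -0.26 (SE 0.18, 95% interval -0.67 to 0.14, adjusted p = 0.504).

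Nr0b2, the repressor of both hydroxylases, varied as much within groups as between them. Its log2 signals were 6.83 and 8.21 in 42Y and 7.40 and 8.06 in 42WKK, which overlapped. They were 8.75 and 8.44 in 16Y, 8.21 and 8.48 in 6Y, 7.76 and 8.22 in 6K and 8.07 and 8.25 in the 1 group. The 42Y group held the lowest array of the 12 beside one near the median, and its SD of 0.98 was the largest for this gene. The log2 difference of 42Y from 42WKK was -0.21 (SE 0.41, 95% interval -1.14 to 0.73, adjusted p = 0.849) and that from 16Y was -1.08 (SE 0.41, adjusted p = 0.292). Without array 42Y-1 the difference from 42WKK was 0.49 (adjusted p = 0.497), and without array 42WKKB it was 0.12 (adjusted p = 0.953), so its direction rested on either array.

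The sequence upstream of Nr0b2 is shown because SHP stands between FXR and both hydroxylases. It is the 250 bases before the RefSeq start on the plus strand of chr4:133553126-133553375 (GRCm38.p6). The capitals mark CAAGGCCA, a form of the site of LRH-1 (Nr5a2), running into the clock E-box CACGTG, with which it shares 2 letters.
Nr0b2: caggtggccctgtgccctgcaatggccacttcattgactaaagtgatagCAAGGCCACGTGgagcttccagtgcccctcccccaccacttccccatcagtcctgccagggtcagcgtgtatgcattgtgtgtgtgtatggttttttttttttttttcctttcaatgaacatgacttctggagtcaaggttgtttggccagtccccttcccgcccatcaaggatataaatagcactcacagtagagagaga
The LRH-1 letters lay 201 to 194 bases before the start and occurred in 1.99% of the 32851 promoters on either strand. The E-box lay 195 to 190 bases before it and occurred in 6.02%. Promoters of 6 of the 10 genes were searched: Akr1d1, Cyp27a1, Cyp8b1, Hsd3b7, Nr0b2 and Nr1h4. The other letters searched on both strands were CAAGGTCA (LRH-1, in 1.33% of promoters), the D-box forms TTATGTAA (0.819%) and TTACGTAA (0.113%), the FXR inverted repeat (0.0335%) and the HNF4 direct repeat (0.0152%). None of these was in the 6 windows, and CAAAGTCCA, CAAGGCCA and CACGTG were in no window but those named.

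At 42 the arrays of the 2 groups did not overlap for 7 of the 10 genes, where 47.8% of all clusters did not. The median log2 difference of 42Y from 42WKK was -0.22 over the 10 genes and 0.02 over all clusters, with 8 genes lower and 2 higher. The 42Y group had the lowest mean of the 6 for 7 of the 10 genes. The share of all clusters with their lowest mean in 42Y was not computed, so this count is not read as a result about the genes. Between 6Y and 6K the median over the 10 genes was -0.04, beside 0.0005 over all clusters. Cyp7a1 and Cyp8b1 were the genes whose difference at 42 was above 1 on the log2 scale in size, and the other 8 lay between -0.26 and 0.05.

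**Figure D3:**
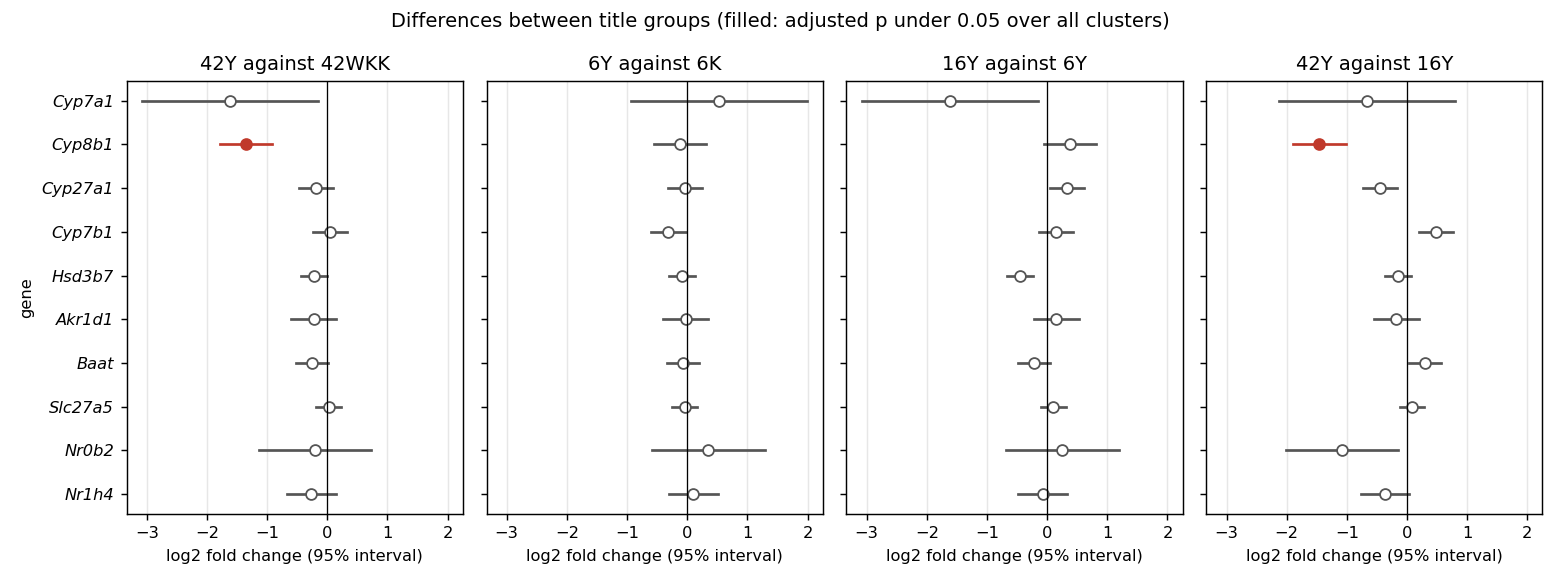
Log2 fold change of each gene (points) with its 95% interval (lines) in 4 comparisons, where values below 0 are lower in the group named first. Filled red points passed the adjusted p threshold of 0.05: Cyp8b1 in 42Y against 42WKK (-1.35) and in 42Y against 16Y (-1.46).

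Across the 12 arrays the 10 genes did not move as one. Of the 45 pairs, 24 had a Pearson coefficient above 0, with a median of 0.11. The 3 pairs above 0.7 were Cyp7a1 with Nr1h4 (0.76), Cyp27a1 with Nr0b2 (0.71) and Cyp8b1 with Cyp27a1 (0.71). The lowest was Cyp7b1 with Nr0b2 (-0.65). These arrays share their normalization and come in 6 groups of 2, so the coefficients describe these arrays.

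The genes whose pattern over the 12 arrays was most like that of a member were sought among 7667 genes with a mean log2 signal of at least 6, for the 4 members that varied most between groups. For Cyp8b1 they were Cited2 (Pearson coefficient 0.96), Rtp3 (0.95) and Fahd1 (0.91). For Hsd3b7 they were Pml (0.98), Pth1r (0.96) and Eef1akmt1 (0.96). For Nr0b2 they were Pgpep1 (0.91), Nr1i2 (0.91), which encodes the pregnane X receptor, and 4732465J04Rik (0.88). For Cyp7a1 they were Cyb561a3 (0.86), Asap1 (0.85) and Dis3l2 (0.85), whose SDs over the 12 arrays were as small as 0.20, 0.29 and 0.089. All these coefficients are the highest among 7667 genes, so they are high by selection and are no test.

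Of 20 other enzymes of bile acid synthesis, 18 were measured, and 1 was called at 42, where 1.85% of all clusters were. Cyp46a1, the cholesterol 24-hydroxylase, gave log2 signals of 6.58 and 7.00 in 42Y and of 8.15 and 8.28 in 42WKK (difference -1.42, SE 0.25, adjusted p = 0.0344). It was also called between 42WKK and 6K, where it was higher in 42WKK by 1.85 (SE 0.25, adjusted p = 0.0205). The call at 42 was lost under 12 of 20 alternatives, with adjusted p-values up to 0.421. The median log2 difference of the 18 enzymes at 42 was -0.29. The aldo-keto reductases Akr1c6 and Akr1c14 lay at -0.55 (adjusted p = 0.0856) and -0.50 (adjusted p = 0.127), and Cyp2c70, which makes muricholic acids in mice, at 0.20 (adjusted p = 0.568). None of the 18 was called in 6Y against 6K, 16Y against 6Y, 42Y against 16Y or 42Y against 1. In the same order, 0.00281%, 1.78%, 0.399% and 1.25% of all clusters were called.

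Of 25 regulators of Cyp7a1 and Cyp8b1, 22 were measured, and 2 were called at 42, both of them clock outputs that rose. The share called among all clusters was 1.85%. Dbp gave 7.81 and 9.01 in 42Y and 6.10 and 6.01 in 42WKK (log2 difference 2.36, SE 0.33, adjusted p = 0.0186). Nr1d1, which encodes REV-ERB-alpha, gave 10.47 and 10.21 in 42Y and 6.96 and 8.41 in 42WKK (log2 difference 2.65, SE 0.45, adjusted p = 0.032). The calls were lost under 4 and 9 of 20 alternatives. The other liver receptors closest to the hydroxylases were not called: Hnf4a differed by 0.51 (SE 0.12, adjusted p = 0.0813), Nr5a2 by 0.31 (SE 0.11, adjusted p = 0.214) and Nr1h3, the liver X receptor alpha, by -0.04 (adjusted p = 0.924). The receptor chain for the intestinal signal was not called either, with Fgfr4 at -0.14 (adjusted p = 0.49) and Klb at 0.23 (adjusted p = 0.606). In 42Y against 1, 2 of the 22 were called, beside 1.25% of all clusters. Nr1i3, the constitutive androstane receptor, had a log2 difference of -1.41 (SE 0.27, limma adjusted p = 0.0489) and Dbp one of 2.51 (SE 0.33, adjusted p = 0.0173). In 16Y against 6Y, 1 of the 22 was called, Nr1d1 (log2 difference 2.66), beside 1.78% of all clusters. In 42Y against 16Y, 1 of the 22 was called, Dbp (2.19), beside 0.399%.

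Of 18 FXR targets and bile acid transporters, 17 were measured, and 1 was called at 42, where 1.85% of all clusters were. Slco1a4, a basolateral uptake transporter, gave 5.19 and 4.85 in 42Y and 6.15 and 6.13 in 42WKK (log2 difference -1.12, SE 0.21, adjusted p = 0.0436), a call lost under 13 of 19 alternatives. Abcb11, the bile salt export pump and a direct FXR target, differed by 0.11 (SE 0.14, adjusted p = 0.768). In 16Y against 6Y the export pump Abcc2 rose (log2 difference 0.49, SE 0.086, adjusted p = 0.037) and Sdc1, a heparan sulfate proteoglycan, fell (log2 difference -0.55, SE 0.11, adjusted p = 0.0469). Those calls were lost under 16 and 18 of 22 alternatives, and 1.78% of all clusters were called in that comparison. In 42WKK against 6K, Slco1a4 was higher by 1.33 (SE 0.21, adjusted p = 0.0343), and Slc51b, a subunit of the basolateral bile acid exporter, was lower (log2 difference -1.20, SE 0.20, adjusted p = 0.0383). Among all clusters 1.01% were called in 42WKK against 6K. Of this list, 0 of 17 were called in 6Y against 6K, where 0.00281% of all clusters were.

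Clock genes moved at 42 beside Cyp8b1. Of 16 genes of the list, 14 were measured, and 8 were called in 42Y against 42WKK, where 1.85% of all clusters were. The list was chosen with earlier results of these data known, so the count is no independent finding. Nr1d1, Nr1d2, Dbp, Tef and Bhlhe41 rose, and Arntl, Clock and Cry1 fell. Their calls were lost under 2 (Arntl) to 16 (Tef) of the alternatives. Dbp and Nr1d1 are also on the regulator list. Arntl, which encodes BMAL1, gave 5.62 and 5.67 in 42Y and 7.30 to 7.74 on the other 10 arrays, with a log2 difference from 42WKK of -2.04 (SE 0.094, adjusted p = 0.000292). Dbp lay at 7.81 to 9.01 in 42Y and at 5.62 to 6.26 on the other arrays. Between 6Y and 6K, 0 of the 14 were called, beside 0.00281% of all clusters. Between 42WKK and 6K, 2 of the 14 were called, beside 1.01% of all clusters. They were Clock, higher in 42WKK by 0.56, and Per2, higher by 0.92 on the log2 scale. In 42Y against 16Y and in 42Y against 1, 4 of the 14 were called each time. The shares of all clusters there were 0.399% and 1.25%. Between 16Y and 6Y, where 1.78% of all clusters were called, Nr1d1, Nr1d2 and Tef rose, by 2.66, 1.48 and 1.13 on the log2 scale. These calls were lost under 13, 7 and 15 of 22 alternatives. The other clock genes called at 42 were not called in 16Y against 6Y. Their log2 differences were -0.23 (Arntl), 0.43 (Clock), -0.01 (Cry1), 0.44 (Dbp) and 0.26 (Bhlhe41). In the same comparison the log2 difference was 0.38 for Cyp8b1 (limma adjusted p = 0.344) and -1.62 for Cyp7a1 (adjusted p = 0.229).

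Cyp7a1 and Cyp8b1 are known to cycle with the day in mouse liver. The part of the clock genes in the low Cyp8b1 signal was not tested. Neutrophil markers were also higher on the 42Y arrays. Their summed log2 signal over the 4 measured was 18.6 to 20.5 in 42Y, 15.8 to 16.5 in 42WKK and 15.5 to 17.7 on the arrays of the other groups. None of the 4 was called. The log2 differences of 42Y from 42WKK were 1.13 for S100a8, 1.20 for S100a9, 0.88 for Csf3r and 0.15 for Ly6g. Ly6g lay low, between 2.29 and 2.79, on all arrays. The part of neutrophils in the low Cyp8b1 signal was not tested.

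**Figure D4:**
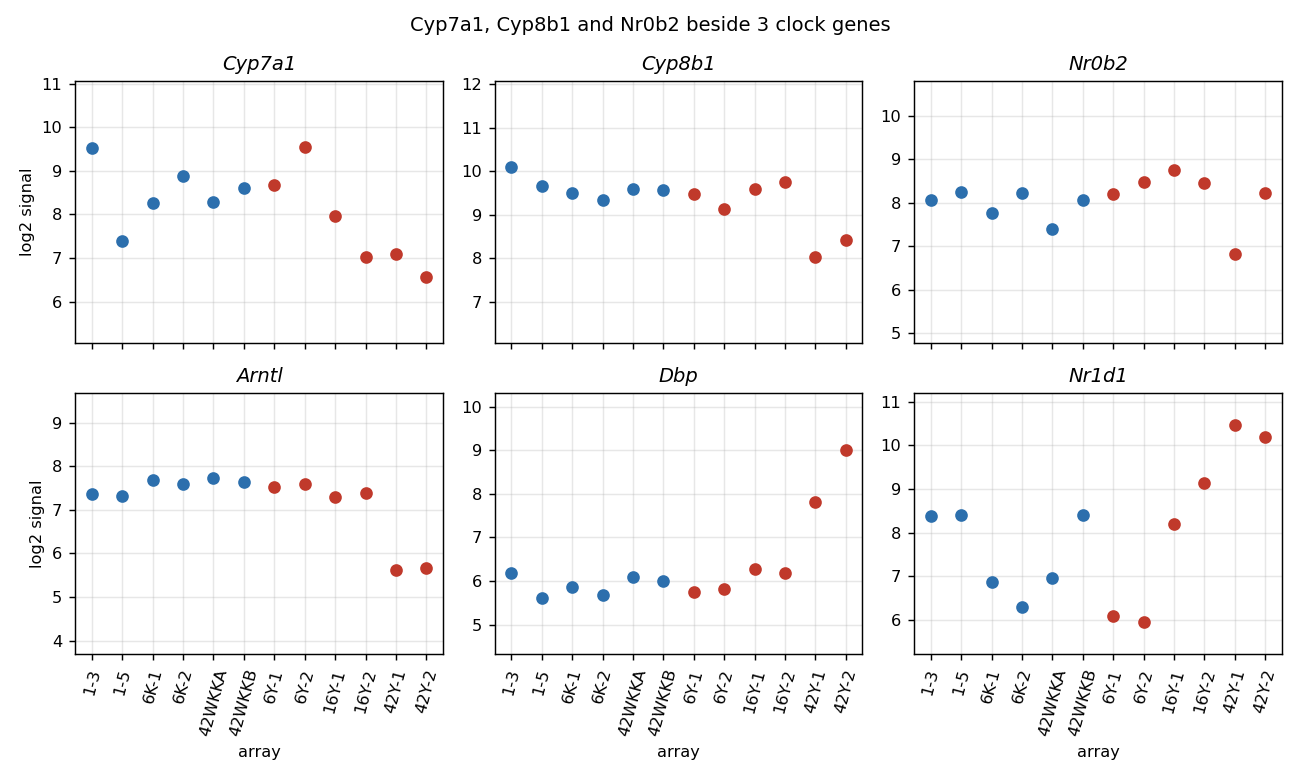
Log2 signal on each of the 12 arrays (points) for Cyp7a1, Cyp8b1 and Nr0b2 and for the clock genes Arntl, Dbp and Nr1d1, with red for titles with Y and blue for the others. The 42Y arrays lie apart from the other 10 for Cyp8b1 (8.03 and 8.42), Arntl (5.62 and 5.67), Dbp (7.81 and 9.01) and Nr1d1 (10.47 and 10.21), but not for Nr0b2 or Cyp7a1.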

How the data were processed

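Expression was measured on 12 Affymetrix arrays. The deposited values are log2 signals per transcript cluster, which the authors made with the RMA-sketch algorithm of Affymetrix Expression Console. The platform is the Affymetrix array of mouse genes, although the methods name the one of mouse exons. For the clusters, the sources used here name no genome build. RMA normalizes the arrays to each other, so differences are relative to the other clusters, and low signals are compressed toward background. Arrays have no read depth, and precision is set by having 2 of them per group.

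Of 35556 clusters, 21797 had 1 gene symbol, 1613 had several and 12146 had none. Of these, 21698 were matched to current symbols by gene ID. Where a gene had several clusters, the one with the highest mean over the 12 arrays stood for it, and each of the 10 members had 1. All clusters entered limma 3.58.1 in R 4.3.3 (lmFit, contrasts.fit and eBayes without trend) with 1 mean per title group, 6 residual and 2.59 prior degrees of freedom. Benjamini-Hochberg adjustment ran over all clusters, and a call needed an adjusted p under 0.05. Scripts were tested on simulated data with changes added to the 42Y arrays. In 42Y against 42WKK, 10% of simulated log2 changes of 0.5 were called and 64% of those of 1.0. The share was 92% at 1.5 and at 2.0. A gene that was not called may thus still differ. Promoters were taken from RefSeq (GRCm38.p6), for 6 of the 10 members.

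The named genes were all 10 members and, from 4 pathway lists and the cell type markers, those called or known as direct regulators. The members and lists were chosen with earlier results of these data known. The alternatives were quantile normalization, centring on array medians, a mean log2 signal of at least 6, a variance trend, clusters with 1 symbol, fits without the 6K arrays, of the compared arrays alone or without each array in turn, an ANOVA, a replicate block and the groups of the genotype field.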

Additional observations from a re-analysis of the deposited data

Results flagged for a closer look

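Nr0b2 had a log2 signal of 6.83 on array 42Y-1, the lowest of the 6 arrays with Y in the title, with a gap to the next that exceeded Dixon's 95% critical value. The other 5 lay between 8.21 and 8.75. The gap was sought in 20 sets of 6 arrays, the Y arrays and the others for each of the 10 genes, and 1 passed. Chance alone gives about 1 in 20.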

How the results depend on the processing

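No called value changed sign under any alternative. The number of the 10 genes called at 42 was 1, and 0 when the compared arrays were fitted alone, 0 under the ANOVA and 0 to 1 with 1 array left out. Against 16Y it was 1, 3 with a mean log2 signal of at least 6 (Cyp8b1, Cyp27a1 and Cyp7b1), 0 with the compared arrays alone, 0 under the ANOVA and 0 to 1 with 1 array left out (0 without either 16Y array, either 42WKK array or 42Y-1). Against the 1 arrays it was 1, 2 after centring, with the variance trend or over clusters with 1 symbol, 4 with a mean of at least 6, 0 with the compared arrays alone or under the ANOVA, and 0 to 1 with 1 array left out (0 without 1-3). Slc27a5 was the gene gained in all 4 settings that added calls there. For 42 minus 6, 0 became 1 (Cyp8b1) with a mean of at least 6 or over clusters with 1 symbol. For 16Y against 6Y, 0 became 1 (Hsd3b7) after centring, with a mean of at least 6, with the trend or over clusters with 1 symbol. For 42WKK against 6K, 0 became 1 (Hsd3b7) under the last 3 of these. For all Y against the others, 0 became 1 with a mean of at least 6 or 1 symbol (Cyp8b1), and 1 with the groups of the genotype field (Cyp7b1), under which the Cyp8b1 difference was 0.24 (adjusted p = 0.377). Over the 6 groups, 2 became 4 after centring, 6 with a mean of at least 6, 5 with the trend, 1 without the 6K arrays and 0 to 2 with 1 array left out. For 6Y against 6K it was 0 in every setting. Filters test fewer clusters; the cause of the other changes was not tested.

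The title numbers 1 and 2 did not pair the arrays, since deviations of same-numbered arrays correlated by -0.0363 to 0.0549. With the replicate block on the 8 arrays that carry them, 0 genes were called in 42Y against 16Y (Cyp8b1 adjusted p = 0.149), and 0 on the same 8 arrays without the block (adjusted p = 0.103), an alternative added after seeing the data. No other count of called genes changed under the block. No member had a second cluster, so that alternative was not run.

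The clusters called at 42 numbered 659, 52 to 500 with 1 array left out and 0 to 1721 under the other alternatives. The ranges in the same order were 142, 1 to 283 and 0 to 807 for 42Y against 16Y, 446, 23 to 361 and 0 to 1631 for 42Y against 1, and 634, 8 to 659 and 0 to 2011 for 16Y against 6Y. They were 360, 37 to 315 and 0 to 1456 for 42WKK against 6K, 51, 3 to 110 and 10 to 622 for 42 minus 6, 74, 6 to 89 and 76 to 548 for all Y against the others, 1931, 138 to 1690 and 1094 to 5121 over the 6 groups, and 1, 0 to 1 and 0 to 2 for 6Y against 6K.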

Other observations

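Slc10a2, the apical sodium-dependent bile acid transporter of the ileum and of bile duct cells, was the 1 gene called at 42 among the markers of other cell types. It was 1 of 3 ileal markers measured, and 1.85% of all clusters were called. Whether its call held under the alternatives was not recorded. Its log2 signals were 10.10 and 9.63 in 42Y and 8.38 and 8.58 in 42WKK, with a log2 difference of 1.38 (SE 0.25, limma adjusted p = 0.0369). The Slc10a2 signals were 7.51 to 7.73 in 6K, 7.75 to 7.97 in the 1 group, 8.04 to 8.69 in 6Y and 8.21 to 8.63 in 16Y. The other ileal markers lay low on all 12 arrays, Fabp6 at 3.40 to 3.86 and the hormone gene Fgf15 at 4.06 to 4.60. Of the 5 bile duct markers measured, none was called at 42, and Krt19 lay between 4.29 and 5.04. Their log2 differences of 42Y from 42WKK ran from -0.22 (Krt7) to 0.40 (Sox9). Their summed log2 signal was 21.4 and 23.6 on the 42Y arrays and 22.0 and 22.1 on the 42WKK arrays. The part of bile duct cells in the Slc10a2 signal was not tested.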
